A study of Mus musculus with 6 samples.

Results

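The enzymes described here carry glucose carbon through glycolysis, turn pyruvate into lactate or acetyl-CoA, and run the tricarboxylic acid (TCA) cycle. They were taken by name as a list of 39 genes, drawn up with earlier results of these data known, and all 39 had a row among the 24420 genes of the deposited count table. Of these, 35 passed the filter on low counts and were tested, among 10949 genes tested in all. RNA was sequenced from regulatory T (Treg) cells, the FOXP3-expressing CD4+ T cells that restrain immune responses, sorted by the YFP that reports Cre from the Foxp3 locus. The 3 samples of OGT-sufficient cells came from female Foxp3YFP-Cre/wt Ogtwt/fl mice. The 3 samples of OGT-deficient cells came from female Foxp3YFP-Cre/wt Ogtfl/fl mice, and all were C57BL/6 and labelled lymph node. OGT is the enzyme that places O-linked N-acetylglucosamine on nuclear and cytosolic proteins, and the comparison asks which transcripts differ when Treg cells lack it.

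Both groups carried 1 Foxp3-driven YFP-Cre allele and at least 1 floxed Ogt allele, so neither was free of Cre. Foxp3 and Ogt both lie on the X chromosome, and because 1 X is silenced at random in each female cell, these mice also kept YFP- Treg cells that never expressed Cre and stayed OGT-sufficient. The age was not on the sample labels; such females were generally used as adults of 6 to 12 weeks. Each sample has its own number in the labels, which do not state whether it is 1 mouse or a pool. The p-values measure the spread between these samples.

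Glycolysis splits glucose into pyruvate in the cytosol, with ATP spent in its upper steps and regained in its lower ones. Pyruvate is then either reduced to lactate, which restores the NAD+ that glycolysis needs, or admitted to mitochondria, where the pyruvate dehydrogenase complex makes acetyl-CoA for the TCA cycle. Effector T cells are known for high glycolysis and lactate output, whereas Treg cells are known to lean more on mitochondrial oxidation, and glucose also feeds the hexosamine pathway that makes the sugar donor of OGT.

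Sequence matters for how these transcripts can be counted, so stretches of coding sequence are shown for 3 glycolytic genes that resemble processed copies elsewhere in the genome and for Pfkp, which does not. Each is read 5′ to 3′ in the sense of the gene from GENCODE transcripts (M21, GRCm38). Capitals mark 1 run of 50 bases, the length of 1 read, that also occurs unchanged in a transcript annotated at another locus. Only that run is marked, so lowercase bases beside it can lie in shared runs too, and for Pgam1 all coding runs are shared. Pfkp has no capitals because none of its coding runs is shared. The stretches lie at chr6:125163302-125163371 on the minus strand for Gapdh, chr19:41915605-41915674 on the plus strand for Pgam1, chr9:59668992-59669061 on the plus strand for Pkm and chr13:6648610-6648679 on the minus strand for Pfkp. The run in capitals was found in 66 other genes for Gapdh, 2 for Pgam1 and 4 for Pkm. It was picked as the run found in the most other genes among those considered, which were not all runs of the gene. These numbers therefore do not describe a typical run.
Gapdh: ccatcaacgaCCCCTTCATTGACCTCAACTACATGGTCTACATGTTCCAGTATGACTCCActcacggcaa
Pgam1: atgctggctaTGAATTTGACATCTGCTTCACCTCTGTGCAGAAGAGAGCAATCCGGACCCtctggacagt
Pkm: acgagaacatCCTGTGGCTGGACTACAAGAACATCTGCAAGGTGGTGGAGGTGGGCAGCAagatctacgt
Pfkp: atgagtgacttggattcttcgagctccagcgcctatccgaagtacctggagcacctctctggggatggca

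The total count per sample ran from 3375454 to 4103552, of which 24.2% to 37.1% fell on Rn45s, the ribosomal RNA precursor. Levels are given below as CPM, that is, as counts per 1000000 of the library size scaled by edgeR, which lay between 3712093 and 3952583. A count of 3, taken as the floor, equals 0.759 to 0.808 CPM, and this floor covers counting error only, since no molecular identifiers were used. The 95% intervals of fold changes come from the edgeR fit and include the spread between samples. Where 3 values are given for a group, they are those of samples 1, 2 and 3. OGT-sufficient sample 3 stood apart, with a count for 18346 genes against 14412 to 15197 in the others. Treg markers were present in every sample. The 7 markers summed to between 1997 and 2966 CPM, with OGT-sufficient sample 3 the lowest. A list of 10 macrophage markers summed to 1676 to 3541 CPM in OGT-sufficient cells, against 1236 to 5126 CPM in OGT-deficient cells, with none of the 10 at 0 in any sample. Other marker lists stayed under these levels, at 71.5 to 241 CPM for B cells, 218 to 849 CPM for erythroid cells, 147 to 240 CPM for monocytes and neutrophils, and 12.6 to 28.4 CPM for CD8 T and NK cells. The B cell and erythroid sums were highest in OGT-sufficient sample 3, where neutrophil S100a9 had 292 counts against 14 to 34 elsewhere. In edgeR's quasi-likelihood test, 2 of 5 tested monocyte and neutrophil, 1 of 5 B cell and 1 of 7 Treg markers had an unadjusted p under 0.05. Of the macrophage markers, 0 of 10 did, and of all genes tested 7.1% did. In bulk RNA, fewer cells of a type and less RNA per cell cannot be told apart.

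Counts of Ogt itself, the gene deleted by Cre, were 562, 632 and 957 in OGT-sufficient cells, against 327, 266 and 368 in OGT-deficient cells. Its log2 fold change of OGT-deficient over OGT-sufficient cells was -1.21 (SE 0.21), lower in 3 of 3 samples, and edgeR's quasi-likelihood test with Benjamini-Hochberg adjustment gave it an adjusted p of 0.191, above the threshold of 0.1. These counts cover the whole gene and not the floxed part alone.

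The 39 enzymes together took 0.291% to 0.356% of the counts outside Rn45s, from 7445 to 8912 counts a sample. At a false discovery rate (FDR) of 0.1 by edgeR's quasi-likelihood test, none of the 35 tested enzymes was called, and 0.0274% of all genes tested were. At an unadjusted p under 0.05, 2 of the 35 were lower in OGT-deficient cells and none higher, against a background of 4.01% lower and 3.09% higher among all genes tested (7.1% in either direction). The 2 were Pfkp, a phosphofructokinase isoform, and Fh1, fumarase, and 2 of 35 (5.71%) is near the background share. DESeq2 called 1 of the enzymes at an unadjusted p under 0.05 (background 4.13%), and edgeR's exact test also called 1 (background 6.38%). For 8 of the 35, all samples of 1 group lay above all samples of the other in CPM, against 13.2% of all genes tested. Of these 8, 5 were lower in OGT-deficient cells (background 7.48%) and 3 were higher (background 5.72%). The log2 fold change was below 0 for 21 of the 35 enzymes, against 52.7% of all genes tested. Its median was -0.022 over the enzymes and -0.017 over all genes tested.

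**Figure D1:**
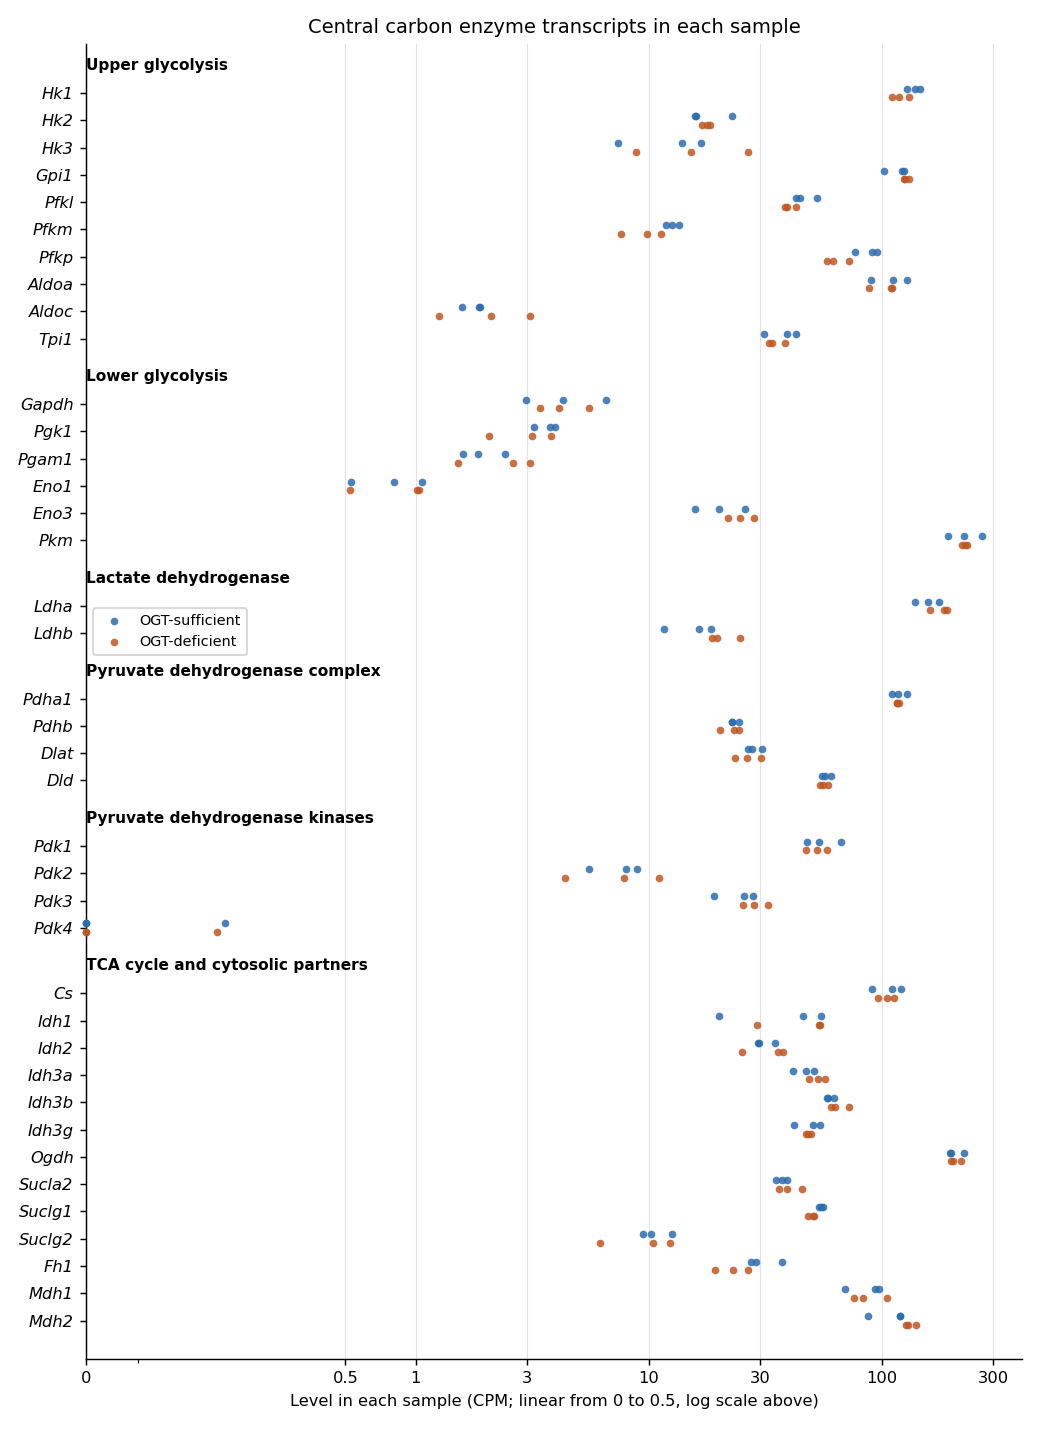
Level of each of the 39 enzymes in CPM (horizontal axis, linear from 0 to 0.5 and logarithmic above), with 1 point per sample, blue for the 3 OGT-sufficient and orange for the 3 OGT-deficient samples, grouped by role. Most enzymes sit between 10 and 300 CPM with mixed colors, while Gapdh, Pgk1, Pgam1 and Eno1 sit below 7 CPM.

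**Figure D2:**
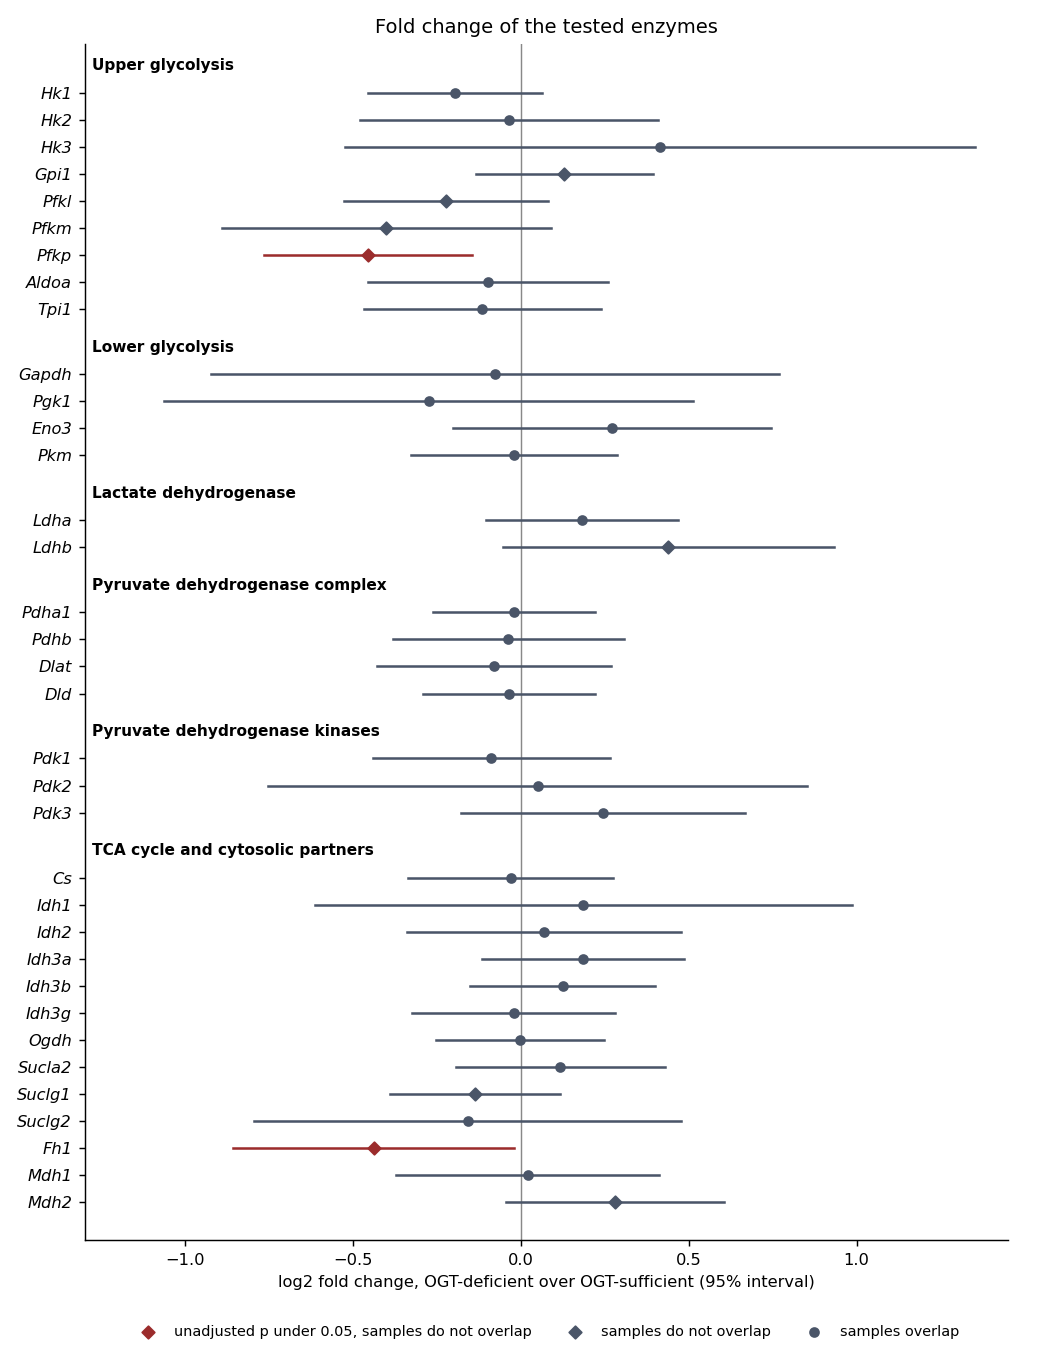
log2 fold change of OGT-deficient over OGT-sufficient cells for the 35 tested enzymes with its 95% interval, grouped by role. Pfkp and Fh1, in red, have intervals that stay below 0, diamonds mark the 8 enzymes whose samples did not overlap, and the other 33 intervals include 0.

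Phosphofructokinase, which commits sugar to glycolysis and is its main point of allosteric control, was the step at which every isoform gene had a lower mean in OGT-deficient cells, with 1 of 3 past the unadjusted threshold. Mice have 3 isoform genes for it, Pfkp (platelet), Pfkl (liver) and Pfkm (muscle), whose products form tetramers. Per kilobase of exon, Pfkp was the highest of these at 17.6 CPM per kb, followed by Pfkl at 11.6 and Pfkm at 3.70.

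The Pfkp gene lies at chr13:6579768-6648777 on the minus strand (GRCm38). Pfkp was at 90.6, 95.4 and 76.6 CPM in OGT-sufficient cells, against 72.0, 58.2 and 61.3 CPM in OGT-deficient cells. All 3 OGT-deficient samples were lower than every OGT-sufficient sample, although OGT-sufficient sample 3 and OGT-deficient sample 1 were close. The log2 fold change was -0.46 (SE 0.14, 95% interval -0.77 to -0.15), or a fold of 0.729, with an unadjusted p of 0.00899 and an adjusted p of 0.519 in edgeR's quasi-likelihood test. Over the 16 alternative settings the log2 fold change lay between -0.64 and -0.35 and the unadjusted p passed 0.05 in 14. Some of these settings were chosen after seeing the data, among them the one that gave -0.64. The unadjusted p was 0.0576 without OGT-sufficient sample 2 and 0.063 without OGT-deficient sample 2. Pfkp had an adjusted p of 0.0479 by edgeR's quasi-likelihood test without OGT-sufficient sample 3 and OGT-deficient sample 1. This setting was chosen after seeing the data. It left out the lowest OGT-sufficient and the highest OGT-deficient value of Pfkp, which widens the difference, so the result adds no support. Pfkp was the 1 enzyme called there at the FDR of 0.1, where 0.731% of all genes tested were called on 2 samples a group. Pfkp shares 748 exonic bases with Pitrm1 on the opposite strand, 5.58% of the exon bases of all its annotated transcripts. The CPM per kb used a shorter exon length of 4298 bases, from protein-coding transcripts. Whether counting used strand was not given. Pitrm1 itself had 206 to 228 counts in OGT-sufficient cells, against 202 to 223 in OGT-deficient cells.

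Pfkl was at 44.6, 52.8 and 42.9 CPM in OGT-sufficient cells, against 38.2, 39.2 and 42.7 CPM in OGT-deficient cells. The groups did not overlap, but the nearest samples were separated by less than 1 CPM, and the log2 fold change of -0.22 (SE 0.13) did not pass the test (unadjusted p = 0.13 in edgeR). Without OGT-sufficient sample 2, the highest, it was -0.09. Pfkm was at 12.6, 11.9 and 13.4 CPM in OGT-sufficient cells, against 9.80, 7.59 and 11.3 CPM in OGT-deficient cells, on 30 to 51 counts a sample. Its groups did not overlap either, and its log2 fold change of -0.40 (SE 0.22) did not pass the test (unadjusted p = 0.098 in edgeR) and was -0.23 without OGT-deficient sample 2. The sum of the 3 genes was 553, 594 and 505 counts against 465, 415 and 440. This sum came to 147 ± 13.6 CPM in OGT-sufficient and 113 ± 7.66 CPM in OGT-deficient cells (SD, n = 3), a ratio of 0.772. The groups of the sum could not overlap, since those of none of the 3 genes did. The smallest two-sided p that an exact permutation test can give for 3 against 3 samples is 0.1. The sign of the log2 fold change was negative for all 3 isoforms in each of the 16 settings, other scalings of the libraries included. Groups without overlap leave little room for a change of sign, so this adds no support. The mix of isoforms overlapped between groups, with Pfkp at 52.7% to 56.6% of the summed CPM per kb in OGT-sufficient and at 48.4% to 55.4% in OGT-deficient cells.

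**Figure D3:**
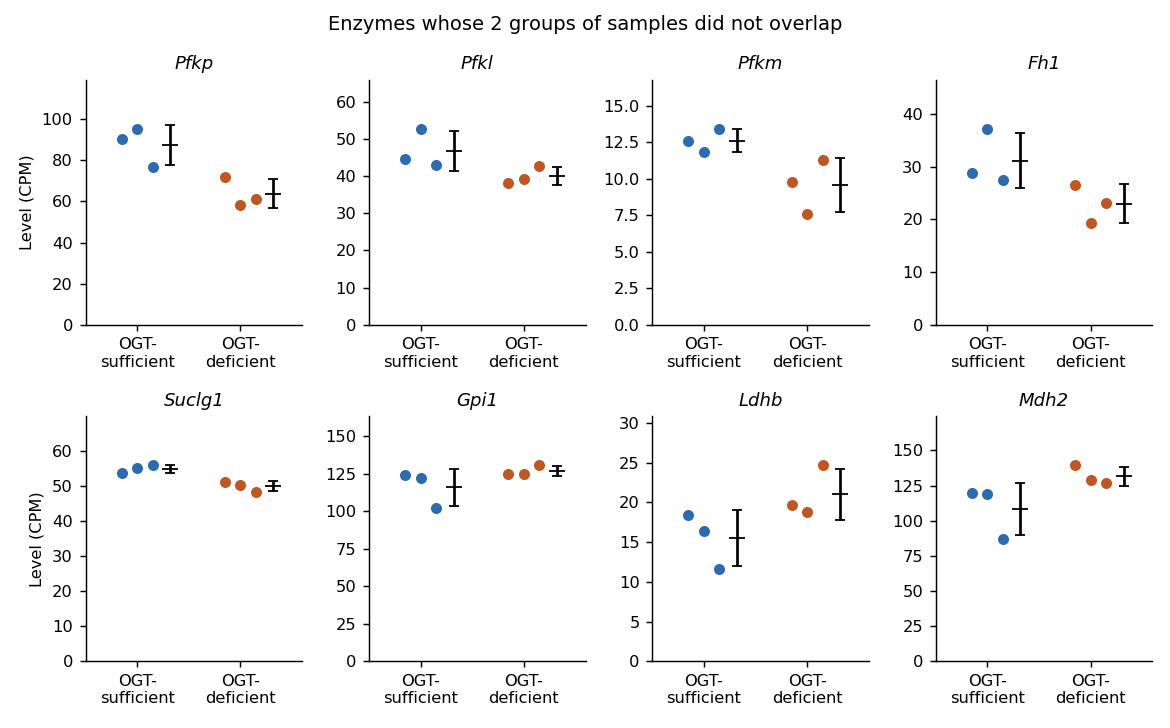
Level in CPM of the 8 enzymes whose groups did not overlap, with a point per sample (blue OGT-sufficient, orange OGT-deficient) and the mean with its SD in black (n = 3), on axes that start at 0. Pfkp, Pfkl, Pfkm, Fh1 and Suclg1 are lower and Gpi1, Ldhb and Mdh2 higher in OGT-deficient cells, and the gaps between groups are small beside the levels.

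Promoter windows of the 3 phosphofructokinase genes are shown because each of the 3 genes was lower in every OGT-deficient than in any OGT-sufficient sample. Each runs from 250 bases before to 50 bases after an annotated start (RefSeq, GRCm38.p6), and 38 of the 39 enzymes had such a window. The letters searched were ACGTG, the core that hypoxia-inducible factor binds, and CACGTG, the E-box that MYC and MAX bind, which contains ACGTG. Both strands were searched, and capitals mark matches. The windows lie at chr13:6648722-6649021 on the minus strand for Pfkp, chr10:78009758-78010057 on the minus strand for Pfkl and chr15:98092339-98092638 on the plus strand for Pfkm. Pfkm has 4 annotated windows, and the one shown is the most upstream, which holds CACGTG. Numbered from upstream, window 2 holds 1 match to ACGTG and windows 3 and 4 none. G and C make up 36.7% of the window shown, against 53.7%, 59.0% and 53.0% of windows 2, 3 and 4.
Pfkp: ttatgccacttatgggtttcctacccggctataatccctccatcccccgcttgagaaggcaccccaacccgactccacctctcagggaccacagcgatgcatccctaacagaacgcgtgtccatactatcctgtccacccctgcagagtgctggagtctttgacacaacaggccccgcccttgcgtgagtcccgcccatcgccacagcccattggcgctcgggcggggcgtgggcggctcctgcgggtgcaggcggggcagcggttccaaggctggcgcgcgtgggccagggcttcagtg
Pfkl: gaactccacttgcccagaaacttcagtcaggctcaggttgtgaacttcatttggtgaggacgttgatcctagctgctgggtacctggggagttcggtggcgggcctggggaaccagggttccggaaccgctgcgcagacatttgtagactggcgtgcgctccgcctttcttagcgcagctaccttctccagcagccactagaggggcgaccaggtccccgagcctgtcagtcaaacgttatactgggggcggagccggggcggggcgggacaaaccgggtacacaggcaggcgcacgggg
Pfkm: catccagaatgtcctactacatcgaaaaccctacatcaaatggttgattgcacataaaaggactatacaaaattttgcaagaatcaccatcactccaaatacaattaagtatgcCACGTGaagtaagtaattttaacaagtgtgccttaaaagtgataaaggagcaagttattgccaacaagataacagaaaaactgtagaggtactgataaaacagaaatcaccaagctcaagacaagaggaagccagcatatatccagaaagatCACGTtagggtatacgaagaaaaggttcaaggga

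The letters ACGTG were absent from the Pfkp and Pfkl windows, which were rich in G and C at 64.7% and 62.3%. Among the 38 enzymes with a window, 17 (44.74%) had ACGTG in at least 1 window, against 29.69% of genes tested. By window the share was 42.11% of 57 for the enzymes against 19.62% of all windows, those of untested genes included. Counted by gene, the share over all genes, tested or not, was 21.78%. Windows of 1 gene can overlap, so they are not independent. CACGTG occurred for 4 of the 38 enzymes (10.53%), namely Ldha, Ogdh, Pdk2 and Pfkm, against 12.02% of genes tested. A match is only a run of letters, and its absence says nothing of either factor.

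None of the other enzymes of upper glycolysis passed the unadjusted threshold. Hexokinase traps glucose in the cell as glucose 6-phosphate, and Hk1, its constitutive mitochondria-bound form, made up 69.0% to 85.0% of the summed hexokinase CPM per kb. Hk1 was at 128, 145 and 138 CPM in OGT-sufficient cells, against 130, 118 and 111 CPM in OGT-deficient cells. These groups overlapped, and the log2 fold change of -0.20 had a 95% interval of -0.46 to 0.06. Hk2, the form induced on activation, had a mean of 18.1 ± 3.97 CPM in OGT-sufficient and 17.7 ± 0.702 CPM in OGT-deficient cells (SD, n = 3).

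Gpi1, the isomerase that makes fructose 6-phosphate, was at 124, 122 and 102 CPM in OGT-sufficient cells, against 125, 125 and 131 CPM in OGT-deficient cells. The groups did not overlap, by a gap of less than 1 CPM, and the log2 fold change of 0.13 (SE 0.12) did not pass the test (unadjusted p = 0.299 in edgeR) and ranged from 0.05 without OGT-sufficient sample 3 to 0.22 without OGT-sufficient sample 1. Aldoa, the main aldolase that splits fructose 1,6-bisphosphate, was at 112, 127 and 89.2 CPM against 109, 110 and 87.5 CPM, with both groups spread over the same range. Aldoc, the brain-type aldolase, had only 5 to 12 counts a sample and was not tested. Tpi1, which interconverts the triose phosphates, had a log2 fold change of -0.12 with a 95% interval of -0.47 to 0.24.

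The lower glycolytic steps held the lowest and some of the highest levels of the pathway. Pkm, pyruvate kinase, was at 226, 269 and 192 CPM in OGT-sufficient cells, against 231, 219 and 227 CPM in OGT-deficient cells. It stood at 87.5 CPM per kb of exon, near Ldha at 88.5 and Mdh2 at 82.5 CPM per kb, the highest of the 39. Its log2 fold change was -0.02, with a 95% interval of -0.33 to 0.29.

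Gapdh, the dehydrogenase that follows the triose phosphates and a transcript usually abundant in every cell, had only 16, 11 and 25 counts in OGT-sufficient cells, against 16, 22 and 13 in OGT-deficient cells. Pgk1, phosphoglycerate kinase, had 12, 14 and 15 counts against 8, 15 and 12. Pgam1, phosphoglycerate mutase, had 6, 9 and 7 counts against 12, 6 and 10. All 3 thus stood at 1.23 to 3.0 CPM per kb in a pathway whose next enzymes reached over 80 CPM per kb. Eno1, the enolase expressed in most cells, had 4, 3 and 2 counts against 4, 4 and 2, or 0.325 CPM per kb, around the floor of 3 counts. Eno3, the enolase known from muscle, was higher at 25.9, 19.9 and 15.8 CPM against 28.1, 24.5 and 21.8 CPM, and so took 97.5% to 98.5% of the CPM per kb summed over Eno1 and Eno3 alone. That sum leaves out Eno1b, with 50 to 93 counts a sample, and Eno2, with 2 to 14. Skeletal muscle markers summed to only 3.23 to 16.3 CPM.

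These 4 genes were also the ones whose coding sequence is most repeated in the genome, as in the stretches printed above for Gapdh and Pgam1. The share of their coding runs of 50 bases found unchanged in a gene annotated elsewhere was 94.2% for Gapdh (217 other genes, of which 212 are pseudogenes), 100% for Pgk1 (5 other genes), 100% for Pgam1 (4) and 83.3% for Eno1 (9). Among the other 35 enzymes the share reached 57.7% for Suclg2, 46.9% for Pkm and 43.1% for Pdhb, and it was 0 for 25. Among the 19897 symbols with coding runs, 28.3% of the 727 genes with a share of at least 80% passed the filter on low counts. Of the 15240 genes with no shared run, 54.6% did. The 727 include the 4 genes above, and genes not expressed in these cells were not set apart. How the study's counting treated reads that align to several places was not given, and its part in these low counts was not tested. The order of levels within lower glycolysis is that of this count table, and the amounts of RNA were not measured in another way. Between groups, Gapdh had a log2 fold change of -0.08 with a 95% interval of -0.92 to 0.77, and Pgk1 one of -0.28 with an interval of -1.06 to 0.51. Changes within these wide intervals could not be detected at this depth. Summed over the 4 genes the counts were 38, 37 and 49 against 40, 47 and 37.

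**Figure D4:**
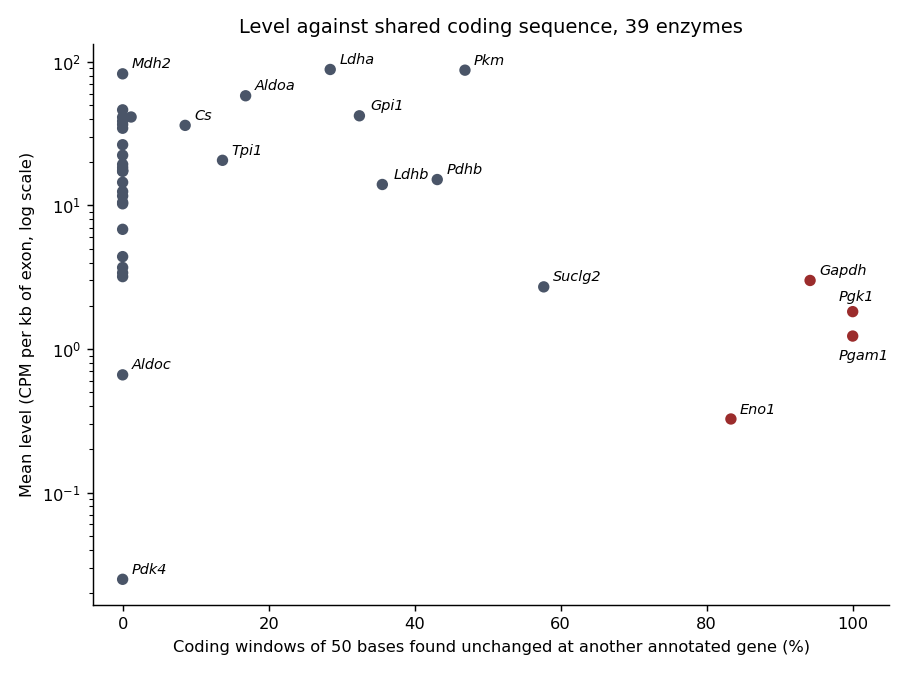
Mean level over the 6 samples in CPM per kb of exon (vertical, log scale) against the percent of coding runs of 50 bases found unchanged in another annotated gene, with a point per enzyme. The 4 enzymes above 80%, in red, lie between 0.325 and 3.0 CPM per kb, while Aldoc and Pdk4 are as low with no shared run.

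Lactate dehydrogenase interconverts pyruvate and lactate, and its A subunit, known as a target of MYC and hypoxia-inducible factor, dominated. Ldha was at 158, 175 and 138 CPM in OGT-sufficient cells, against 189, 184 and 161 CPM in OGT-deficient cells, which overlapped. Ldhb, the heart-type subunit, was at 18.4, 16.4 and 11.6 CPM against 19.6, 18.7 and 24.6 CPM, without overlap. Its log2 fold change of 0.44 (SE 0.22) was the largest above 0 among the tested enzymes and did not pass the test (unadjusted p = 0.0754 in edgeR). The OGT-sufficient sample 3, the library that stood apart, held the lowest Ldhb level, and without it the log2 fold change was 0.27 (unadjusted p = 0.188 in edgeR). The ratio of Ldha to Ldhb counts was 8.55 to 12.0 in OGT-sufficient and 6.54 to 9.84 in OGT-deficient cells, so the balance of the subunits overlapped between groups.

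The pyruvate dehydrogenase complex, which turns pyruvate into acetyl-CoA, had the narrowest range of fold changes among the 6 role groups. The 4 subunits on the list, Pdha1 and Pdhb of E1, Dlat of E2 and Dld of E3, had log2 fold changes between -0.08 and -0.02, and all 4 overlapped between groups. Pdha1 was the highest at 41.3 CPM per kb of exon, with 118 ± 8.55 CPM in OGT-sufficient and 117 ± 1.32 CPM in OGT-deficient cells (SD, n = 3). Its 95% interval of -0.26 to 0.22 on the log2 scale bounds the change. The CPM of the 4 subunits summed to 227, 239 and 217 in OGT-sufficient cells, against 221, 221 and 225 in OGT-deficient cells, a close range in both groups. Pdhx, the protein that binds E3 into the complex and a gene outside the list of 39, was at 12.6, 12.9 and 14.5 CPM in OGT-sufficient cells, against 8.26, 11.4 and 12.1 CPM in OGT-deficient cells. Its groups did not overlap, and its log2 fold change of -0.33 (SE 0.21) did not pass the test (unadjusted p = 0.154 in edgeR). For Pdha1, 16.15% of the exon bases of all annotated transcripts overlap Map3k15 on the opposite strand, which had 5 to 21 counts a sample.

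The pyruvate dehydrogenase kinases phosphorylate E1 and so close this entry. Pdk3 was the highest at 12.5 CPM per kb, with 28.1, 25.6 and 19.0 CPM in OGT-sufficient cells, against 25.3, 32.4 and 28.3 CPM in OGT-deficient cells. Pdk1, a known hypoxia target, followed at 10.5 CPM per kb and had a log2 fold change of -0.09 (95% interval -0.44 to 0.26). The groups overlapped for both kinases. Pdk2 was at 4.39 to 11 CPM, and its interval of -0.75 to 0.85 left its direction undetermined. Pdk4, the kinase induced by fasting and fatty acids, had 1, 0 and 0 counts against 0, 1 and 0, all below the floor of 3 counts.

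In the TCA cycle and its cytosolic partners, all 13 genes were tested, 6 with a log2 fold change below 0 and 7 above. Fh1, fumarase, at chr1:175600374-175625635 on the minus strand (GRCm38), hydrates fumarate to malate. It was at 28.9, 37.2 and 27.4 CPM in OGT-sufficient cells, against 26.6, 19.2 and 23.1 CPM in OGT-deficient cells. The groups did not overlap, though OGT-sufficient sample 3 and OGT-deficient sample 1 again lay side by side. The log2 fold change was -0.44 (SE 0.18, 95% interval -0.86 to -0.02), with an unadjusted p of 0.0414 and an adjusted p of 0.685 in edgeR's quasi-likelihood test. Fh1 passed an unadjusted p of 0.05 in 8 of the 16 settings, among them the 1 that left out these nearest samples together. It failed in DESeq2 (p = 0.0954), in the exact test (p = 0.0504), without the low-count filter (p = 0.0536), with the replicate number as a block (p = 0.0811) and without either OGT-sufficient sample 1 or 2 or OGT-deficient sample 2 or 3. The log2 fold change was -0.26 without OGT-sufficient sample 2. Fh1 had no coding run shared with another gene.

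Mdh2, the mitochondrial malate dehydrogenase that follows fumarase, was at 119, 119 and 86.9 CPM in OGT-sufficient cells, against 139, 129 and 127 CPM in OGT-deficient cells. The groups did not overlap, and OGT-sufficient sample 3 was far below the rest. The log2 fold change of 0.28 (SE 0.14) did not pass the test (unadjusted p = 0.0823 in edgeR), and it was 0.15 without OGT-sufficient sample 3 and 0.10 without both that sample and OGT-deficient sample 1. Mdh1, the cytosolic form of the malate-aspartate shuttle, ranged over 69.5 to 97.0 CPM against 75.6 to 106 CPM and had a log2 fold change of 0.02.

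Suclg1, the alpha subunit of succinate-CoA ligase common to both of its forms, was at 53.7, 55.0 and 55.8 CPM in OGT-sufficient cells, against 51.1, 50.3 and 48.2 CPM in OGT-deficient cells. The groups did not overlap, by a small margin, and the log2 fold change of -0.14 (SE 0.11) did not pass the test (unadjusted p = 0.255 in edgeR) and was -0.08 without OGT-deficient sample 3. Its spread between replicates, a coefficient of variation of 2.46%, was below the 7.08% that counting alone gives. Its partners Sucla2, of the ATP form, and Suclg2, of the GTP form, overlapped between groups.

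Ogdh, the E1 subunit of the 2-oxoglutarate dehydrogenase complex, had the highest CPM of these 13 genes and the smallest difference among them, with 206 ± 16.0 CPM in OGT-sufficient and 206 ± 11.5 CPM in OGT-deficient cells (SD, n = 3). Its log2 fold change was -0.003, with a 95% interval of -0.25 to 0.25. Cs, citrate synthase, which starts the cycle, was at 107 ± 15.2 CPM in OGT-sufficient and 104 ± 7.93 CPM in OGT-deficient cells. The NAD-linked isocitrate dehydrogenase genes Idh3a, Idh3b and Idh3g had log2 fold changes of 0.18, 0.12 and -0.02. Idh3b was the highest of these per length at 38.6 CPM per kb, with 62.3, 58.7 and 57.9 CPM in OGT-sufficient cells, against 72.2, 60.2 and 62.6 CPM in OGT-deficient cells. The groups overlapped for all 3 genes of the enzyme. Of the NADP-linked forms, mitochondrial Idh2 stood at 18.4 CPM per kb and cytosolic Idh1 at 17.3 CPM per kb. Idh2 was at 34.7, 29.4 and 29.7 CPM in OGT-sufficient cells, against 25, 35.9 and 37.5 CPM in OGT-deficient cells.

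Hk3, the hexokinase known from myeloid cells, and Idh1 varied far more within groups than the other enzymes with at least 50 counts on average. Hk3 was at 13.9, 16.7 and 7.37 CPM in OGT-sufficient cells, against 8.77, 26.6 and 15.2 CPM in OGT-deficient cells. Idh1 was at 54.5, 45.8 and 20.01 CPM in OGT-sufficient cells, against 29.2, 54.1 and 53.5 CPM in OGT-deficient cells. Their coefficients of variation within groups were 48.9% and 37.8%, where counting alone gives 13.3% and 7.82%. Both were lowest in OGT-sufficient sample 3 and OGT-deficient sample 1, the samples in which the macrophage markers were also lowest, at 1676 and 1236 CPM against 3127 to 5126 CPM in the other 4. Other enzymes, among them Pdk2, Mdh1, Cs and Tpi1, were lowest in those samples too, so this order was not particular to Hk3 and Idh1. Pdk2, on fewer counts, had a coefficient of variation of 34.8%, where counting alone gives 18.6%. With the macrophage list as a covariate, chosen after seeing the data, the log2 fold change moved from 0.41 to 0.23 for Hk3 and from 0.19 to 0.07 for Idh1. For Pdk2 it moved from 0.05 to -0.13. The log2 fold change of Pfkp was -0.45 and that of Fh1 -0.43 in the same fit. The part of macrophage RNA in the levels of these or any other enzymes was not tested further.

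**Figure D5:**
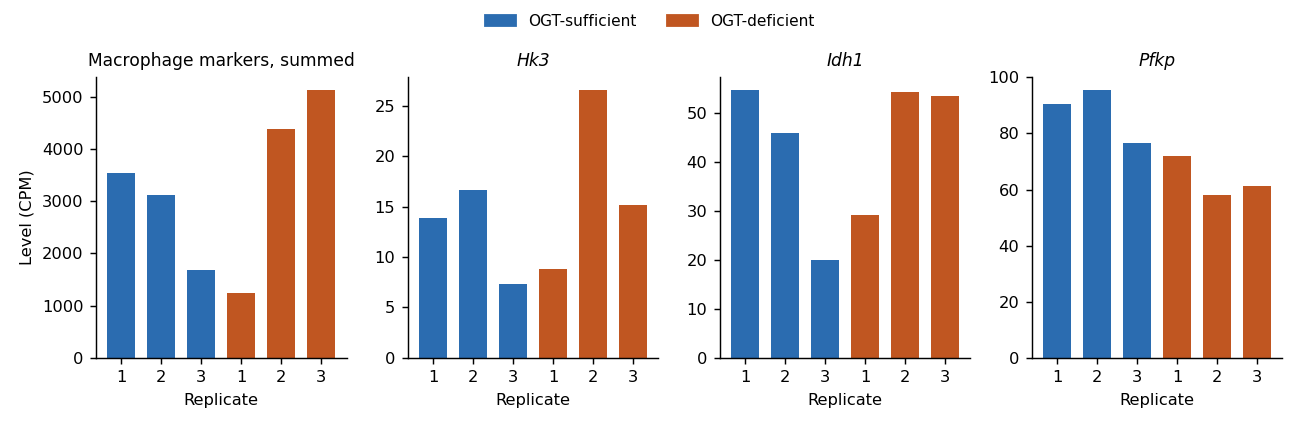
Summed level of 10 macrophage markers and the levels of Hk3, Idh1 and Pfkp in each sample, in CPM on axes that start at 0, with blue bars for OGT-sufficient and orange bars for OGT-deficient replicates 1 to 3. OGT-sufficient sample 3 and OGT-deficient sample 1 are the lowest for the macrophage markers, Hk3 and Idh1. For Pfkp, OGT-sufficient sample 3 is the lowest and OGT-deficient sample 1 the highest of its group.

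Neighbouring steps of metabolism were described by 8 further lists with 82 genes, of which 65 were tested. None of the 65 was called at the FDR of 0.1 by edgeR's quasi-likelihood test. At an unadjusted p under 0.05, 3 were lower and 3 higher in OGT-deficient cells, against the backgrounds of 4.01% and 3.09%, and the median log2 fold change was 0.04. No gene of pyruvate entry (6 tested), the rest of the TCA cycle (8), the pentose phosphate pathway (8) or glutamine entry (6) passed that threshold.

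In glucose and lactate transport, 1 of 7 tested genes was lower, Slc2a3, which encodes the neuronal-type glucose transporter GLUT3 that T cells also use. Slc2a3 was at 40.6, 56.3 and 36.1 CPM in OGT-sufficient cells, against 25.3, 30.1 and 30.1 CPM in OGT-deficient cells, without overlap (log2 fold change -0.64, SE 0.19, unadjusted p = 0.00812 in edgeR). Slc2a1, the GLUT1 transporter, went the other way, at 21.2 ± 1.05 CPM in OGT-sufficient and 26.9 ± 2.41 CPM in OGT-deficient cells (SD, n = 3), and did not pass the test (unadjusted p = 0.0505 in edgeR).

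Among 15 transcriptional regulators of glycolysis and mitochondria, Myc alone passed the unadjusted threshold. Myc, which drives many glycolytic genes in activated lymphocytes, was at 95.9, 91.9 and 81.3 CPM in OGT-sufficient cells, against 119, 104 and 134 CPM in OGT-deficient cells, without overlap (log2 fold change 0.41, SE 0.13, unadjusted p = 0.0123 in edgeR). Hif1a, the oxygen-regulated subunit of hypoxia-inducible factor, had a log2 fold change of 0.07 (SE 0.13). Of the other 4 genes, Adpgk, an ADP-dependent glucokinase, and Me2, the mitochondrial malic enzyme, were higher, with log2 fold changes of 0.46 and 0.31. Gapdhs, the sperm-type GAPDH, and Ldhd, D-lactate dehydrogenase, were lower, with log2 fold changes of -1.12 and -0.99 on 4 to 23 and 7 to 28 counts a sample. All 4 had adjusted p-values over 0.5 in edgeR's quasi-likelihood test.

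Of the 39 enzymes, 4 lie on the X chromosome, as Ogt does, namely Pgk1, Pdha1, Pdk3 and Idh3g. The groups overlapped in CPM for each of these 4.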

How the data were processed

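Whole-number counts per gene for 6 samples were used as deposited by the authors. Per the submitters' processing notes, paired reads of 50 bases were trimmed (Trimmomatic 0.33), mapped to mm10 (Bowtie2 2.2.4.0) and counted with featureCounts; the article names Cuffquant. Strand, annotation and treatment of reads with several alignments were not given in the sources used here. The authors' columns of fold changes and p-values were not used.

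Counts of all genes were fitted with edgeR 4.0.16 (R 4.3.3; TMM scaling, filterByExpr with a minimum count of 10, quasi-likelihood test, Benjamini-Hochberg adjustment over 10949 genes, FDR threshold 0.1), 3 samples against 3 with no block. CPM (counts per 1000000) used the scaled library sizes. On simulated data the fit recovered 100% of changes of 4-fold and 79% of changes of 2-fold, and 16% of its calls were unchanged genes. Changes under 2-fold were not among those simulated. Alternatives were DESeq2 1.42.0, edgeR's exact test, other scalings and filters, a replicate block and leaving out each sample.

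Exon lengths, coding runs of 50 bases and overlaps came from GENCODE M21 (GRCm38, the same assembly as mm10), promoter windows from RefSeq; lists matched by symbol, and 19897 of the 24420 symbols had coding runs. Members and lists were chosen with earlier results of these data known. Every enzyme could be named. Values in all samples were given for enzymes with an unadjusted p under 0.05 or non-overlapping groups, the highest isozyme per step and enzymes under the filter, and others were added where a paragraph turned on them. Listed neighbours were named at an unadjusted p under 0.05 or as the best known of a list. Replicates of a group differed by more than sampling noise.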

Additional observations from a re-analysis of the deposited data

How the results depend on the processing

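The median log2 fold change of the enzymes stayed within -0.09 to 0.07 over all settings. None of the enzymes passed the FDR of 0.1 in the planned settings. With OGT-sufficient replicate 3 and OGT-deficient replicate 1 left out, chosen after seeing the data, 1 did (Pfkp). Those replicates held the nearest Pfkp values of the groups. At an unadjusted p under 0.05, 2 enzymes passed, against 1 in DESeq2 and 1 in the exact test. Without the low-count filter 3 passed (Ldhb, Mdh2 and Pfkp), with 39 tested. With a replicate left out, 0 to 4 passed: 0 without OGT-sufficient replicate 2 or OGT-deficient replicate 2, and 4 (Eno3, Ldhb, Mdh2 and Pfkp) without OGT-sufficient replicate 1. Replicate numbers did not pair the samples (correlations of deviations -0.2805, 0.0073 and -0.118), and with the number as a replicate block 1 enzyme passed. The causes were not tested. Over all genes, 777 passed an unadjusted p under 0.05, against 452 in DESeq2, 1208 without the low-count filter (more genes tested) and 462 without OGT-deficient replicate 2. At the FDR of 0.1, 3 genes passed, against 38 in DESeq2, 80 in the exact test, 131 without the filter, 31 with the macrophage covariate and 0 with the block, and between 0 and 9 with a replicate left out. The sign of the fold change turned in at least 1 of 16 settings for 19 of the 35 enzymes, and in none for the 8 without overlap. For these 8, the lack of overlap itself leaves little room for a change of sign. Ogt passed the FDR of 0.1 in DESeq2 (log2 fold change -1.19), the exact test (-1.21), without the low-count filter (-1.15), with the macrophage list as covariate (-1.16) and without OGT-sufficient replicate 3 and OGT-deficient replicate 1 (-0.97), and lay between -1.31 and -0.94 with a replicate left out. Counts of at most 25 a sample for Gapdh, Pgk1, Pgam1 and Eno1 limit what could be detected there.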

Other observations

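Rows of the count table that resemble the low glycolytic genes were read beside them. For Eno1, 1 of the 9 genes that share its coding runs had a row, Eno1b, which holds 80.69% of them. Its counts were 73, 77 and 50 in OGT-sufficient cells, against 93, 77 and 56 in OGT-deficient cells, where 2 to 4 counts were recorded for Eno1 itself in all 6 samples. For Gapdh, 8 of 217 such genes had a row, and 7 of these had at most 4 counts in any sample. The eighth, Peli2, an E3 ubiquitin ligase gene that shares 8.17% of the runs, had 16 to 54 counts. For Pgk1, Pgam1 and Pkm no such gene had a row, so their copies were not analysed here. Aldoart1, a retrogene of Aldoa, had 8 to 26 counts, and Csl, a citrate synthase-like gene, had 11 to 25.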
